A study of Homo sapiens with 18 samples.

Results

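The cyclin-dependent kinase (CDK) inhibitors are the proteins that hold back the kinases of the cell cycle. Of the 8 genes listed by symbol (CDKN1A, CDKN1B, CDKN1C, CDKN2A, CDKN2B, CDKN2C, CDKN2D and CDKN3), 7 had a named probe on the array, out of 17687 genes that did, and each of the 7 had a single probe. CDKN2C was not analysed here. RNA was measured on 18 whole-transcript arrays of human neuroblastoma cells in 6 groups of 3 biological replicates. The lines were SK-N-BE(2), in which MYCN is amplified, and CHLA-90, in which it is not. All groups of both lines, controls included, received pLKO lentivirus made in HEK-293T cells, which encoded the control hairpin shNSC or a short hairpin RNA against ERK5, shERK5-4 or shERK5-5, and RNA was taken 72 h later. The labels state no selection of transduced cells, so each value is an average over all cells of a well.

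The inhibitors fall into families with different reach. The Cip/Kip proteins p21 (CDKN1A), p27 (CDKN1B) and p57 (CDKN1C) bind cyclin-CDK complexes of several kinds, above all those of CDK2. The INK4 proteins p16 (CDKN2A), p15 (CDKN2B) and p19 (CDKN2D) bind CDK4 and CDK6 and keep them from D-type cyclins. CDKN3 is a phosphatase that removes the activating phosphate of CDK2 and is itself most abundant in dividing cells. ERK5, the kinase encoded by MAPK7, is known as a promoter of G1 progression, and the study asked what its silencing does to the transcriptome of these cells.

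The silenced transcript was lower in every hairpin group. In SK-N-BE(2), MAPK7 stood at 61.8% of its shNSC level under shERK5-4 (log2 change -0.69 ± 0.19 (SE), adjusted p = 0.0103 by limma) and at 64.3% under shERK5-5 (-0.64 ± 0.19, adjusted p = 0.0319). In CHLA-90 it stood at 47.7% (-1.07 ± 0.19, adjusted p = 0.000329) and 50.5% (-0.99 ± 0.19, adjusted p = 0.00139). No difference between the hairpins was detectable in MAPK7 itself, with values of -0.06 in SK-N-BE(2) (shERK5-4 minus shERK5-5, log2, 95% interval -0.461 to 0.347) and -0.08 in CHLA-90 (-0.484 to 0.324). In SK-N-BE(2) the MAPK7 calls rested on few arrays. Without shNSC replicate 1 neither was past the threshold (adjusted p = 0.061 and 0.149), and the shERK5-5 call was also lost without shNSC replicate 3 (0.11), shERK5-5 replicate 1 (0.0833) or shERK5-5 replicate 2 (0.123). The SK-N-BE(2) arrays had medians from 5.63 to 5.69 and the CHLA-90 arrays from 6.35 to 6.43, and the mean correlation of an array with the others of its group was 0.989 or more. Of 6 sympathetic neuroblast markers with a probe, all 6 lay above the array median in CHLA-90 and all but DBH did so in SK-N-BE(2), while none of 4 endothelial markers did in any group.

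The upstream sequences of CDKN1A and CDKN1B are shown because these were the members that changed with a hairpin, and both upstream sequences of CDKN2A because its single probe covers transcripts from different start sites, those of p16 and of ARF, which the array value does not separate. Each is the 250 bases before an annotated start, read 5′ to 3′ on the gene's strand, from RefSeq on build GRCh38.p14. CDKN1A lies at chr6:36678464-36678713 on the plus strand and CDKN1B at chr12:12717118-12717367 on the plus strand. The CDKN1A window lies inside the annotated span of the gene, which begins at chr6:36676463, so sequence before that position is not covered. The 2 CDKN2A windows lie at chr9:21995325-21995574 and chr9:21974858-21975107 on the minus strand. Capitals mark matches, on either strand, to any of 7 short motifs.
CDKN1A: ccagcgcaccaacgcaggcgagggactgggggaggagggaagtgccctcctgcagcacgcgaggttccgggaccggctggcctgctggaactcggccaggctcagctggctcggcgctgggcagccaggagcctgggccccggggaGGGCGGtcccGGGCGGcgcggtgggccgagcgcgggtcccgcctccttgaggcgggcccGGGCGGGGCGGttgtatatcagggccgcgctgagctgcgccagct
CDKN1B: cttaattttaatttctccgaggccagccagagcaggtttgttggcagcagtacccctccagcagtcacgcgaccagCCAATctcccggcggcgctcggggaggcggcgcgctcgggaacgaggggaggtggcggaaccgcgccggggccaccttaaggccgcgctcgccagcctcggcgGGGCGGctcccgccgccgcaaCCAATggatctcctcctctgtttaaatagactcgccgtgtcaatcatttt
CDKN2A, upstream start: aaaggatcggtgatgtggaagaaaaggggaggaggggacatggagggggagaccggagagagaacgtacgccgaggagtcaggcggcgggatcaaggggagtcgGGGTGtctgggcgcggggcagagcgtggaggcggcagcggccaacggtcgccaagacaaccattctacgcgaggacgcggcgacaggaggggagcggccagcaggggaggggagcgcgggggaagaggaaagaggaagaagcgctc
CDKN2A, downstream start: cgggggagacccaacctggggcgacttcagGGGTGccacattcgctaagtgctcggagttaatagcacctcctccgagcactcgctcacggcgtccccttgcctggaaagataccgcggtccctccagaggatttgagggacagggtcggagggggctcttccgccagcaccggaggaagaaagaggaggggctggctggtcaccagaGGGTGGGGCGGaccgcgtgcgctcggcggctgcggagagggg

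The windows differ in their matches. The GC box GGGCGG, bound by Sp1-like factors, matched 4 times in CDKN1A, where the last pair overlaps by a base, once in CDKN1B and once at the downstream CDKN2A start. It was present in 42.6% of the 35116 RefSeq windows of that length. The CCAAT box matched 2 times in CDKN1B and in none of the other windows shown, against 32.0% of all windows. The KLF box CACCC, of the family of factors that includes the ERK5-linked KLF2, matched in both CDKN2A windows and in neither of the CDKN1A and CDKN1B windows, against 54.7% of all. The E-box CACGTG (6.34% of all windows), the forkhead motif GTAAACA (2.98%), the cell cycle element TTTGAA (13.3%) and the TATA box TATAAA (10.7%) matched in none of the 4. These are matches of letters in a short window, not mapped binding sites.

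CDKN1B, which encodes p27 at chr12:12717368-12722369, rose with shERK5-5 in both lines and not detectably with shERK5-4 in either. In SK-N-BE(2) the log2 signals were 10.39, 10.60 and 10.53 with shNSC, 10.44, 11.11 and 10.34 with shERK5-4, and 11.43, 11.40 and 11.49 with shERK5-5. The shERK5-5 arrays lay above all others of that line, and shERK5-4 overlapped shNSC, with replicate 2 higher than the other two. In CHLA-90 the signals were 11.41, 11.18 and 11.39 with shNSC, 11.13, 11.15 and 11.09 with shERK5-4, and 11.71, 12.49 and 11.91 with shERK5-5. The 3 groups of CHLA-90 did not overlap, and shERK5-4 was the lowest of them.

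**Figure D1:**
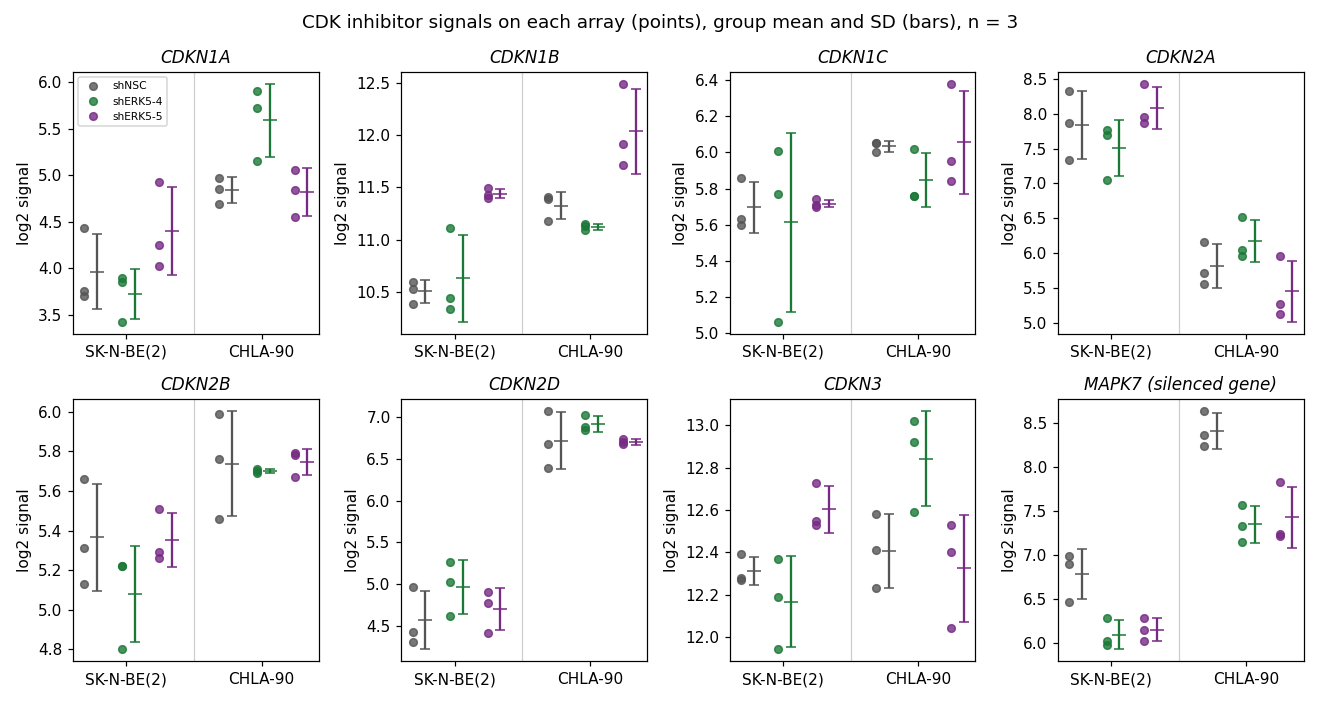
Log2 signal of the 7 CDK inhibitor genes and of MAPK7, the silenced gene, on each of the 18 arrays (points), with group means and SD (bars, n = 3); colours give the hairpin and the line is on the horizontal axis. The CDKN1B points of shERK5-5 lie above those of the other hairpins in both lines, and CDKN2A and CDKN2D separate the lines.

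With shERK5-5, CDKN1B was 1.91-fold higher than with shNSC in SK-N-BE(2) (log2 change 0.93 ± 0.20 (SE), adjusted p = 0.00232 by limma) and 1.64-fold higher in CHLA-90 (0.71 ± 0.20, adjusted p = 0.022). With shERK5-4 the log2 changes were 0.12 ± 0.20 (95% interval -0.293 to 0.54) and -0.20 ± 0.20 (-0.62 to 0.213), so a change as large as that with shERK5-5 in SK-N-BE(2) lay outside both intervals. The shERK5-5 effect did not differ detectably between the lines (CHLA-90 minus SK-N-BE(2), -0.22, 95% interval -0.813 to 0.366, adjusted p = 0.727). Whichever array was left out, the call in SK-N-BE(2) held (0.88 to 0.98). The CHLA-90 call did not survive leaving out shERK5-5 replicate 2, the highest array (log2 change 0.48, adjusted p = 0.126), nor leaving out replicate 2 or 3 of shNSC (0.0842 and 0.0504).

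CDKN1A, which encodes p21 at chr6:36676463-36687332, rose with shERK5-4 in CHLA-90 and changed detectably in no other hairpin group. In CHLA-90 its log2 signals were 4.97, 4.69 and 4.85 with shNSC, 5.90, 5.15 and 5.72 with shERK5-4, and 5.06, 4.55 and 4.84 with shERK5-5. The shERK5-4 arrays were above all others of the line, while shERK5-5 overlapped shNSC. In SK-N-BE(2) the signals were 3.70, 3.76 and 4.43 with shNSC, 3.90, 3.85 and 3.42 with shERK5-4, and 4.02, 4.93 and 4.25 with shERK5-5. There both hairpin groups overlapped shNSC, with shERK5-5 above shERK5-4.

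The rise of CDKN1A with shERK5-4 in CHLA-90 was 1.69-fold (log2 change 0.75 ± 0.25, adjusted p = 0.0352 by limma), and it was the only one of the 7 genes called in that comparison. The call was a weak one, on signals below the array median. It was lost with quantile normalization (0.71, adjusted p = 0.0502) and without any one of shNSC replicates 1, 2 or 3 (0.0551, 0.121 and 0.0795) or shERK5-4 replicates 1 or 3 (0.165 and 0.117). The other log2 changes were -0.24 with shERK5-4 (95% interval -0.75 to 0.27) and 0.44 with shERK5-5 (-0.0736 to 0.947) in SK-N-BE(2), and -0.02 with shERK5-5 in CHLA-90 (-0.53 to 0.49).

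CDKN1C, which encodes the imprinted inhibitor p57 at chr11:2883218-2885775, gave log2 changes between -0.19 and 0.02 in the 4 comparisons with shNSC, none of them called (adjusted p 0.623 to 0.98). In SK-N-BE(2) its shERK5-4 arrays at 5.06, 6.01 and 5.77 spanned the whole range of the line, and the shERK5-5 arrays at 5.71, 5.70 and 5.74 lay within that of shNSC, 5.60 to 5.86. In CHLA-90 all arrays lay between 5.76 and 6.38.

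The INK4 genes gave no call against shNSC. CDKN2A, the p16 and ARF locus at chr9:21967752-21995324, gave log2 changes in SK-N-BE(2) of -0.33 ± 0.27 under shERK5-4 and 0.24 ± 0.27 under shERK5-5, and in CHLA-90 of 0.36 ± 0.27 and -0.36 ± 0.27, with adjusted p from 0.426 to 0.699. CDKN2B, the TGF-beta-inducible p15 gene beside it at chr9:22002903-22009313, gave -0.29 ± 0.18, -0.01 ± 0.18, -0.04 ± 0.18 and 0.01 ± 0.18 in the same order (adjusted p 0.291 to 0.985). CDKN2D, which encodes p19 at chr19:10566460-10568979, gave 0.40 ± 0.21, 0.13 ± 0.21, 0.20 ± 0.21 and -0.01 ± 0.21 (adjusted p 0.193 to 0.985). For CDKN2B every 95% interval lay within -0.654 and 0.377, so neither a 2-fold rise nor a 2-fold fall was inside them.

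CDKN3, at chr14:54397007-54420218, gave no call against shNSC. In CHLA-90 its log2 signals were 12.41, 12.58 and 12.23 with shNSC, 12.59, 12.92 and 13.02 with shERK5-4, and 12.40, 12.53 and 12.04 with shERK5-5. The shERK5-4 arrays lay just above the rest of the line, yet the change of 0.44 ± 0.17 did not pass the threshold (adjusted p = 0.0908). In SK-N-BE(2) the signals were 12.28, 12.39 and 12.27 with shNSC, 12.19, 11.94 and 12.37 with shERK5-4, and 12.73, 12.53 and 12.55 with shERK5-5, which gave -0.15 ± 0.17 and 0.29 ± 0.17, neither called.

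**Figure D2:**
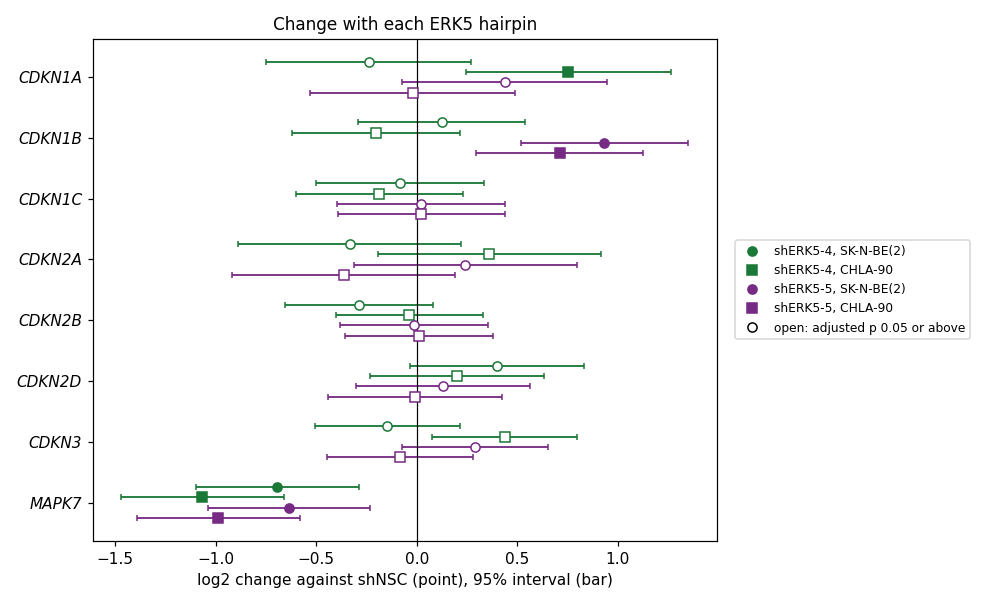
Log2 change of each gene against shNSC (points) with its 95% interval (bars), for each hairpin (colour) and line (circle, SK-N-BE(2); square, CHLA-90); filled points are past an adjusted p of 0.05. Among the inhibitors the filled points are CDKN1B with shERK5-5 in both lines and CDKN1A with shERK5-4 in CHLA-90, while MAPK7 is filled in all 4 comparisons.

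Over the set, 0 of 7 inhibitors were called in SK-N-BE(2) with shERK5-4, where 23.9% of all 21448 probes were. By limma with no adjustment 0 of the 7 had p under 0.05 there. With shERK5-5, 1 of 7 was called, higher, in each line, against 12.8% of all probes called in SK-N-BE(2) and 12.7% in CHLA-90. With shERK5-4 in CHLA-90, 1 of 7 was called, higher, against 18.3%. Each of these shares was near or below the background. No inhibitor was called with both hairpins of a line. The comparisons of both hairpins in a line share the same 3 shNSC arrays. In SK-N-BE(2) the median log2 change of the 7 was -0.15 with shERK5-4 and 0.24 with shERK5-5, and in CHLA-90 it was 0.20 and -0.01. The medians of all probes in that order were 0.01, -0.00, 0.01 and 0.05.

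Set against each other, the hairpins differed in CDKN1B in both lines. The log2 difference of shERK5-4 from shERK5-5 was -0.81 ± 0.20 in SK-N-BE(2) (adjusted p = 0.00373 by limma), 1.75-fold lower, and -0.91 ± 0.20 in CHLA-90 (adjusted p = 0.00148), 1.88-fold lower, and both calls held whichever array was left out. CDKN1A differed in opposite directions in the lines, at -0.68 ± 0.25 in SK-N-BE(2) (adjusted p = 0.0483) and 0.77 ± 0.25 in CHLA-90 (0.0222). Its signals were below the array median on all the arrays compared. CDKN2A and CDKN3 followed CDKN1A in sign. CDKN2A stood at -0.57 ± 0.27 in SK-N-BE(2) (adjusted p = 0.137) and 0.72 ± 0.27 in CHLA-90 (0.0482), and CDKN3 at -0.44 ± 0.17 (0.0749) and 0.52 ± 0.17 (0.0297). In SK-N-BE(2) 2 of 7 inhibitors were called between the hairpins, both lower with shERK5-4, against 24.5% of all probes (12.6% lower and 11.8% higher). In CHLA-90 4 of 7 were, 1 lower and 3 higher, against 27.2% (12.4% lower and 14.8% higher).

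Apart from CDKN1B these calls were fragile. The SK-N-BE(2) difference in CDKN1A passed the threshold in 1 of 6 fits that left out an array, and was lost without any of shERK5-4 replicates 1, 2 and 3 or shERK5-5 replicates 2 and 3 (without shERK5-5 replicate 2 it was -0.41, adjusted p = 0.305). In CHLA-90 that of CDKN1A was lost without shERK5-4 replicate 1 or 3 or shERK5-5 replicate 2 (0.108, 0.0803 and 0.0946), and that of CDKN3 without shERK5-4 replicate 2 or 3 or shERK5-5 replicate 3 (0.0969, 0.13 and 0.14). The CHLA-90 difference in CDKN2A was lost with centred arrays (0.71, adjusted p = 0.0567) and without any array but shERK5-5 replicate 2 (0.0578 to 0.204). Centred CDKN2A signals there ran from -0.47 to 0.10 with shERK5-4 and from -1.31 to -0.45 with shERK5-5.

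**Figure D3:**
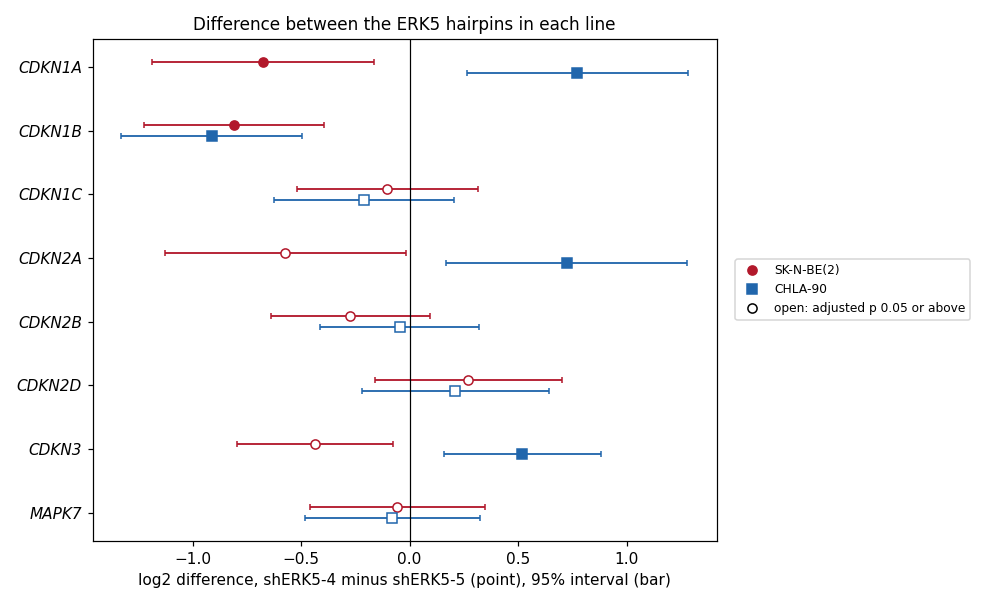
Log2 difference between the ERK5 hairpins, shERK5-4 minus shERK5-5 (points), with 95% intervals (bars), in SK-N-BE(2) (circles) and CHLA-90 (squares); filled points are past an adjusted p of 0.05. CDKN1B is negative in both lines, while CDKN1A, CDKN2A and CDKN3 are negative in SK-N-BE(2) and positive in CHLA-90, and MAPK7 is near 0 in both.

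The difference of these differences between the lines, a comparison chosen after the values had been seen, was 1.45 ± 0.35 for CDKN1A (adjusted p = 0.0072 by limma), 1.30 ± 0.38 for CDKN2A (0.0245) and 0.96 ± 0.25 for CDKN3 (0.0116), so 3 of 7 inhibitors were called, all higher, against 13.5% of all probes (8.05% higher and 5.45% lower). For CDKN1B it was -0.10 (95% interval -0.693 to 0.486). The CDKN1A and CDKN3 values were called whichever array was left out (1.19 to 1.67 and 0.82 to 1.08). That of CDKN2A was lost without any of SK-N-BE(2) shERK5-4 replicate 2 (adjusted p = 0.0714), SK-N-BE(2) shERK5-5 replicate 3 (0.0765), CHLA-90 shERK5-4 replicate 3 (0.0767), CHLA-90 shERK5-5 replicate 1 (0.0658) or CHLA-90 shERK5-5 replicate 3 (0.0502). Neither single hairpin effect differed between the lines past the threshold for any of the 7 genes, where 7.23% of all probes did with shERK5-4 and 5.39% with shERK5-5. With no adjustment 2 of the 7, CDKN1A and CDKN3, had p under 0.05 with shERK5-4 and 0 with shERK5-5. The CDKN1A difference with shERK5-4 was 0.99 ± 0.35 (adjusted p = 0.0931) and that of CDKN3 0.58 ± 0.25 (0.18).

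The lines themselves differed in 2 of the 3 measured INK4 genes, CDKN2A and CDKN2D, under each scaling of the arrays, and CDKN2B was called under none. CDKN2A was far lower in CHLA-90. With shNSC the SK-N-BE(2) arrays read 7.86, 7.34 and 8.32, and the CHLA-90 arrays 5.71, 5.56 and 6.16, with no overlap. CDKN2D went the other way, at 4.31, 4.43 and 4.97 on the SK-N-BE(2) arrays and 6.39, 7.07 and 6.68 on those of CHLA-90, again with no overlap. With each array centred on its median the log2 difference, CHLA-90 minus SK-N-BE(2), was -2.75 ± 0.27 for CDKN2A (adjusted p = 1.34e-08 by limma), which is 6.72-fold lower, and 1.43 ± 0.21 for CDKN2D (adjusted p = 6.48e-06), 2.69-fold higher. The ERK5 hairpins left this order in place, since every CHLA-90 array was below every SK-N-BE(2) array for CDKN2A and above for CDKN2D, centred or not. The lower side of each shNSC difference lay below the array median. Its centred signals ran from -0.83 to -0.19 for CDKN2A in CHLA-90 and from -1.38 to -0.68 for CDKN2D in SK-N-BE(2).

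The scale between the lines is not settled, because the deposited medians of the lines differ. The median difference of all probes was -0.27 with centred arrays, 0.45 with the values as deposited and -0.03 with quantile normalization. The log2 difference of CDKN2A was -2.75, -2.03 and -2.70 in that order, and that of CDKN2D was 1.425, 2.14 and 1.44. Both were called under each scaling, but the size depended on the scaling. Relative to the median of all probes CDKN2A stood at -2.48, -2.48 and -2.67 and CDKN2D at 1.69, 1.69 and 1.47. The centred and deposited values are equal there by construction, since centring shifts each array by a constant. With centred arrays 3 of 7 inhibitors were called, 1 higher and 2 lower in CHLA-90, against 56.3% of all probes (19.2% higher and 37.1% lower). Of all calls 34.1% were higher in CHLA-90 with centred arrays, 80.6% as deposited and 49.0% with quantile normalization. The third call, CDKN3, was at -0.62 with centred arrays, 0.09 as deposited (adjusted p = 0.657) and -0.27 with quantile normalization (0.218), so no direction is given for it. CDKN1A and CDKN1B were called higher in CHLA-90 with the values as deposited only (0.87 and 0.82, 0.42 and 0.37 above the median).

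**Figure D4:**
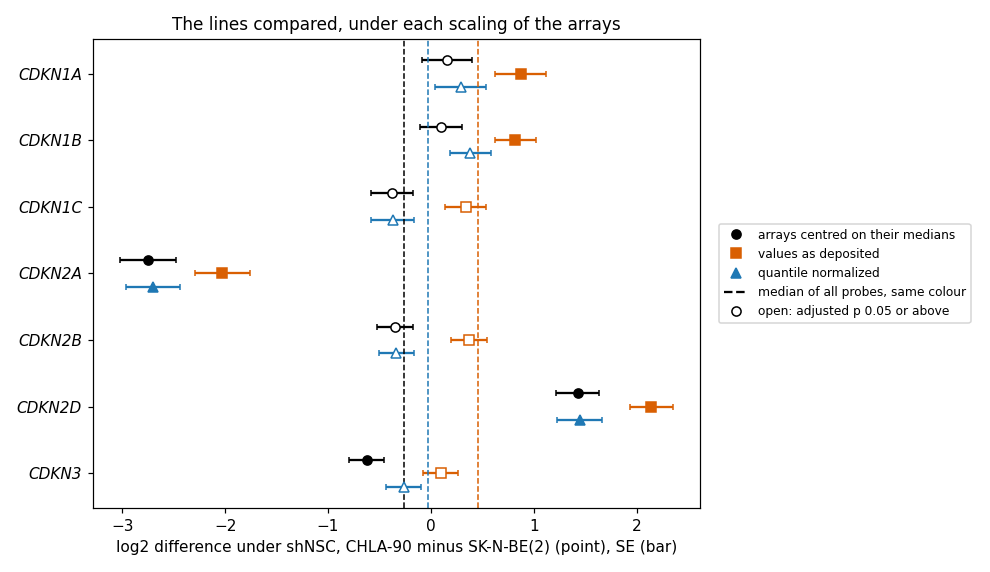
Log2 difference under shNSC, CHLA-90 minus SK-N-BE(2), for the 7 inhibitors (points, with SE bars) under 3 scalings of the arrays; dashed lines give the median of all probes under the scaling of the same colour, and filled points are past an adjusted p of 0.05. CDKN2A lies far to the left and CDKN2D to the right under each scaling, while the other genes move with the dashed lines.

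RNA of the kinases on which the inhibitors act, and of proteins around them, was counted over a list of 19 genes, all with a probe, which held cyclins, CDKs, parts of the CDK-activating kinase (CDK7, CCNH and MNAT1) and the pocket proteins that CDKs phosphorylate (RB1, RBL1 and RBL2). In SK-N-BE(2) 8 were lower and 3 higher with shERK5-4 (11.7% of all probes were lower and 12.2% higher), and 3 lower and 6 higher with shERK5-5 (6.07% and 6.76%). In CHLA-90 6 were lower and 1 higher with shERK5-4 (8.25% and 10.0%), and 2 lower and 1 higher with shERK5-5 (6.84% and 5.85%). The list medians were -0.44, -0.01, -0.30 and 0.02 in the same order. CDK6, a target of the INK4 proteins, fell with both hairpins in SK-N-BE(2) (-3.66 ± 0.18 and -2.53 ± 0.18), as did cyclin E2, the CDK2 activator encoded by CCNE2 (-2.55 ± 0.24 and -0.74 ± 0.24). In CHLA-90 CDK6 and CCNE2 fell with shERK5-4 (-2.04 ± 0.18 and -0.93 ± 0.24) and were not called with shERK5-5 (-0.53 ± 0.18 and -0.23 ± 0.24). CCNA2, the S phase cyclin that p21 and p27 also bind, fell with both hairpins in CHLA-90 (-2.54 ± 0.15 and -0.50 ± 0.15). In SK-N-BE(2) CCNA2 fell with shERK5-4 (-2.64 ± 0.15) and was not called with shERK5-5 (-0.16 ± 0.15).

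A list of 14 genes held parts of the ubiquitin ligases that destroy p21, p27 and p57, with conjugating enzymes that serve them. In SK-N-BE(2) 5 were lower and 3 higher with shERK5-4, and 2 lower and 0 higher with shERK5-5. In CHLA-90 4 were lower and 1 higher with shERK5-4, and 2 lower and 0 higher with shERK5-5. The shares of all probes lower and higher in these comparisons were 11.7% and 12.2%, 6.07% and 6.76%, 8.25% and 10.0%, and 6.84% and 5.85%. The list medians were -0.295, 0.02, -0.13 and -0.26, against 0.01, -0.00, 0.01 and 0.05 for all probes. SKP1, the adaptor of the SCF ligase, fell with both hairpins in CHLA-90 (-0.80 ± 0.22 and -0.72 ± 0.22). In SK-N-BE(2) SKP1 fell with shERK5-4 (-1.23 ± 0.22) and was not called with shERK5-5 (-0.21 ± 0.22). SKP2, the receptor that brings p27 to that ligase, is named here after its values were seen. Its signals in SK-N-BE(2) were 14.49, 14.50 and 14.71 with shNSC, 10.88, 10.27 and 10.27 with shERK5-4 and 14.38, 14.57 and 14.74 with shERK5-5. In CHLA-90 they were 13.34, 13.45 and 13.45 with shNSC, 9.67, 9.78 and 9.70 with shERK5-4 and 13.01, 13.03 and 13.01 with shERK5-5. The shERK5-4 arrays were far below all others of their line. SKP2 fell with shERK5-4 to 17.1-fold lower in SK-N-BE(2) (log2 change -4.09 ± 0.17, adjusted p = 9.52e-14 by limma), and to 13.0-fold lower in CHLA-90 (-3.70 ± 0.17, adjusted p = 7.45e-13). With shERK5-5 its log2 changes were -0.00 ± 0.17 and -0.40 ± 0.17, neither called. CDKN1B RNA was not called with shERK5-4 in either line, and p27 protein, on which SKP2 acts, was not analysed here.

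Of 24 measured factors that act on transcription of the inhibitor genes, 10 were lower and 0 higher in SK-N-BE(2) with shERK5-4, 3 lower and 0 higher with shERK5-5, 8 lower and 0 higher in CHLA-90 with shERK5-4, and 1 lower and 2 higher with shERK5-5, with medians of -0.35, -0.045, -0.18 and 0.025. Of all probes, 11.7% were lower and 12.2% higher in the first of these comparisons, 6.07% and 6.76% in the next, 8.25% and 10.0% with shERK5-4 in CHLA-90, and 6.84% and 5.85% with shERK5-5 there, and their medians were 0.01, -0.00, 0.01 and 0.05. FOXO3, a forkhead activator of CDKN1B, fell with both hairpins in SK-N-BE(2) (-0.68 ± 0.15 and -0.48 ± 0.15), as did MYCN (-2.02 ± 0.17 and -0.80 ± 0.17). In CHLA-90 MYCN fell with shERK5-4 (-1.89 ± 0.17) and rose with shERK5-5 (0.97 ± 0.17). FOXO3 fell there with shERK5-4 (-0.83 ± 0.15) and was not called with shERK5-5 (0.03 ± 0.15). TBX2, a repressor of CDKN1A and CDKN2A, fell with both in CHLA-90 (-1.33 ± 0.25 and -0.85 ± 0.25) and was called with neither in SK-N-BE(2) (-0.39 ± 0.25 and 0.05 ± 0.25). KLF2 was called in none of the 4 comparisons, at -0.63, 0.01, -0.16 and 0.46. KLF4 was also called in none, at 0.30, -0.03, -0.14 and 0.17. KLF6, of the same family, fell with shERK5-4 in SK-N-BE(2) (-2.04 ± 0.23) and in CHLA-90 (-0.73 ± 0.23). With shERK5-5 KLF6 was not called in either line (0.30 ± 0.23 and 0.39 ± 0.23).

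CDKN1A is the best known target of p53, and 24 other p53 targets were measured. With shERK5-4, 5 rose and 5 fell in SK-N-BE(2), where 12.2% of all probes were higher and 11.7% lower, while 3 rose and 5 fell in CHLA-90, where 10.0% were higher and 8.25% lower. With shERK5-5, 5 rose and 1 fell in SK-N-BE(2) (6.76% and 6.07% of all probes), while 1 rose and 3 fell in CHLA-90 (5.85% and 6.84%). The medians of the list were -0.07 and -0.005 with shERK5-4 in those lines and 0.21 and 0.01 with shERK5-5. MDM2, the ligase that destroys p53, rose in all 4 comparisons (2.28 ± 0.17 and 2.04 ± 0.17 in SK-N-BE(2), 1.49 ± 0.17 and 1.01 ± 0.17 in CHLA-90), and CCNG1 rose with both hairpins in SK-N-BE(2) (1.41 ± 0.18 and 0.98 ± 0.18). BAX, a death effector, fell with both in CHLA-90 (-0.93 ± 0.17 and -0.56 ± 0.17), and so did TP53INP1 (-1.66 ± 0.21 and -1.99 ± 0.21). In SK-N-BE(2) BAX was called with neither (-0.38 ± 0.17 and 0.25 ± 0.17). TP53INP1 there fell with shERK5-5 (-1.40 ± 0.21) and was not called with shERK5-4 (-0.03 ± 0.21). CCNG1 was called with neither hairpin in CHLA-90 (-0.01 ± 0.18 and 0.18 ± 0.18). CDKN1A was called in 1 of the 4 comparisons with shNSC.

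**Figure D5:**
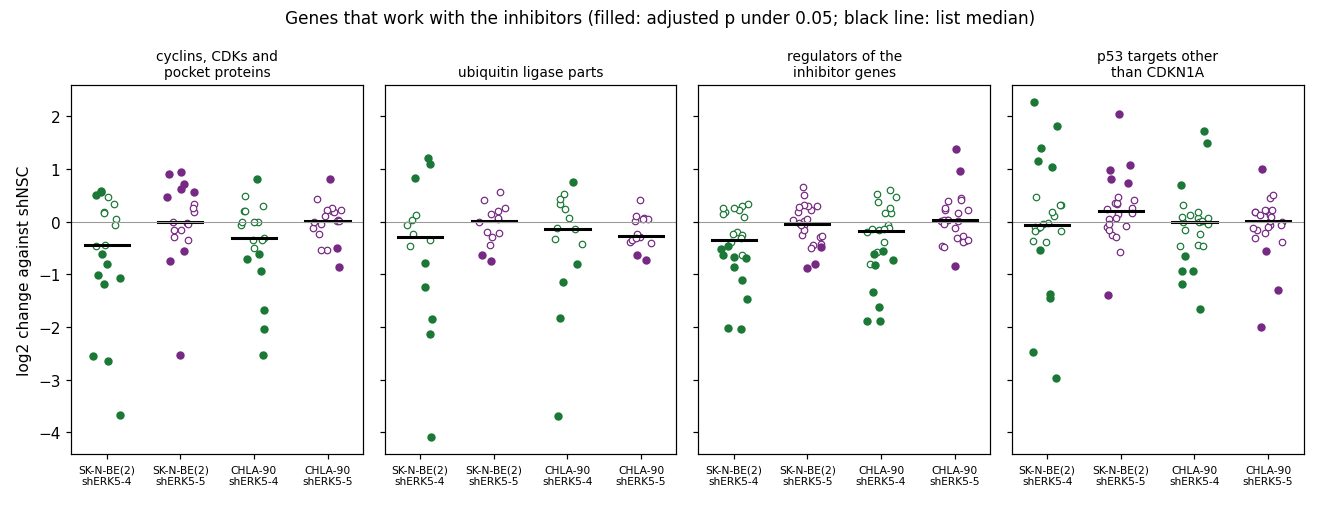
Log2 change against shNSC of each measured gene (points) of 4 lists, for the 4 hairpin comparisons, with the list median as a black line; filled points are past an adjusted p of 0.05. The far lower points of the ubiquitin ligase panel, at -4.09 and -3.70 with shERK5-4, are SKP2.

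The named genes whose pattern over the 18 arrays was most like that of CDKN1B, with the mean of its line taken off each value, were PIK3R1, a regulatory subunit of PI 3-kinase (r = 0.952), the actin regulator WASF2 (0.937) and FKBP7 (0.92). WASF2 had log2 changes of 1.36 and 1.12 with shERK5-5, in SK-N-BE(2) and CHLA-90, and of -0.02 and -0.19 with shERK5-4. For CDKN1A they were AGPS, an enzyme of ether lipid synthesis (0.795), the peptidase DPP7 (0.785) and TFF2 (0.784), the highest of many values over few groups. These correlations are a description over arrays that share lines, hairpins and scaling.

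The summed signals of some marker lists lay apart between the hairpins. All 5 fibroblast markers with a probe lay above the array median in SK-N-BE(2), where their summed centred signal ran from 25.3 to 25.8 with shNSC, 21.2 to 22.3 with shERK5-4 and 30.0 to 31.1 with shERK5-5. In CHLA-90, where 4 of the 5 did, the sums were 11.4 to 11.6, 8.44 to 9.57 and 12.1 to 13.6. The sum of the 6 sympathetic markers in SK-N-BE(2) was 27.5 to 29.0 with shNSC, 21.2 to 24.1 with shERK5-4 and 28.2 to 29.5 with shERK5-5, and in CHLA-90 it was 37.3 to 39.4, 24.8 to 27.5 and 36.4 to 39.0, so that the shERK5-4 sums were below those of shNSC in both lines and the shERK5-5 sums overlapped them. The sum of 3 blood and immune markers, of which PTPRC alone lay above the array median in SK-N-BE(2), was -0.23 to 0.83 there with shNSC, -2.39 to -1.80 with shERK5-4 and 0.19 to 0.87 with shERK5-5. In CHLA-90, where 0 of the 3 did, it was -4.94 to -4.10, -5.96 to -4.95 and -4.12 to -3.71. The endothelial sums of each hairpin overlapped those of shNSC in both lines. The sum of 2 Schwann markers, both below the array median in every group, was -1.66 to -0.86 with shNSC and -0.77 to 0.18 with shERK5-4 in SK-N-BE(2), and overlapped shNSC in the other comparisons. The part of these genes in the CDKN1B and CDKN1A results was not tested. Each group was a culture of a single neuroblastoma line, so the sums are RNA of that line's cells and count no other cell type. In bulk RNA, a change in every cell and a change in the mix of cells within the line cannot be told apart.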

How the data were processed

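For each array the authors deposited 1 log2 signal per probe, base 2 is read from the range of values. How the signals were summarised, with what software and on which build, is not given in the sources used here. No detection calls were used. Genes were named from the array's probe table (17709 of 21448 probes with 1 symbol, 0 with several, 3739 with none), and the probe with the highest mean would stand for a gene with several. A limma 3.58.1 model (R 4.3.3; lmFit, eBayes) had a mean for each group and 12 residual degrees of freedom, and took in every probe on the 18 arrays. A call is a Benjamini-Hochberg adjusted p under 0.05, the adjustment running over every probe in the comparison. The lines were compared on median-centred arrays. Errors are standard errors of the model. Arrays have no read depth, and 3 arrays a group limit the precision. The fit was tested on simulated data. Figures used matplotlib 3.10.9 in Python 3.11.15.

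The members, the 4 lists and the tests were chosen with earlier results of these data known. Named genes are the members, MAPK7, up to 2 genes per list and direction called alike with both hairpins of a line, and the 3 most like a called member. KLF2, KLF4, KLF6 and SKP2 were named outside that rule, and KLF4, KLF6 and SKP2 after their values were seen. Alternatives were array centring, quantile normalization, leaving out dim probes (mean below the 25 percentile), a replicate block, the arrays of 1 line, eBayes with trend and robust estimation, averaged probes, and each array left out.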

Additional observations from a re-analysis of the deposited data

Results flagged for a closer look

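For 3 inhibitors the difference between the hairpins was itself different in the 2 lines, by the model's test of that difference, which was added after the values had been seen. On the log2 scale shERK5-4 minus shERK5-5 was negative in SK-N-BE(2) and positive in CHLA-90 for each. It was -0.68 and 0.77 for CDKN1A, -0.57 and 0.72 for CDKN2A, and -0.44 and 0.52 for CDKN3. The SK-N-BE(2) values of CDKN2A and CDKN3 were not called, and CDKN1A signals were below the array median on all these arrays. The CHLA-90 value minus the SK-N-BE(2) value was 1.45 for CDKN1A, 1.30 for CDKN2A and 0.96 for CDKN3. CDKN2A stood at 0.91 without the 2 arrays least like their groups, SK-N-BE(2) shERK5-4 replicate 2 and CHLA-90 shERK5-5 replicate 1 (adjusted p = 0.149 by limma). MAPK7 gave -0.02 for the same quantity (95% interval -0.595 to 0.548).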

How the results depend on the processing

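The replicate block changed 0 of 70 member calls: the counts of inhibitors called with it were 0 and 1 in SK-N-BE(2) (shERK5-4 and shERK5-5 against shNSC), 1 and 1 in CHLA-90, 2 and 4 between the hairpins, and 3 between the lines, as without it. The labels do not say what a number marks. The deviations from group means of 18 same-numbered pairs correlated with r from -0.126 to 0.204, and 7 were above 0.1, against 4 of 36 other pairs. These 7 included 6 of 6 pairs of replicate 3, against 1 of 6 of replicate 1 and 0 of 6 of replicate 2, so a source shared by the arrays of replicate 3 was not excluded. Since not every pair was above 0.1, the block was kept as an alternative. Leaving out dim probes or averaging probes changed no call either, but neither setting could alter a member's values. Each member had a single probe and was kept by the dim filter. These settings could act only through the variance shared over probes and the adjustment, so they are no check on the members' values. Quantile normalization left 0 inhibitors called with shERK5-4 in CHLA-90. The SK-N-BE(2) count between the hairpins was 1 with the arrays of 1 line and 1 without the 2 arrays least like their groups, an alternative added after the data were seen. With trend and robust estimation that of CDKN1A there was lost (adjusted p = 0.0507) and that of CDKN3 gained (0.0469). With the arrays of 1 line the CHLA-90 difference in CDKN3 was lost (0.0536). CDKN3 between the lines turned to 0.0933 with the values as deposited. With 1 array left out the counts ran from 0 to 1 with shERK5-4 and 0 to 1 with shERK5-5 in CHLA-90, 1 to 2 between the hairpins in SK-N-BE(2) and 1 to 3 in CHLA-90, 0 to 1 for the line difference of the shERK5-4 effect (CDKN1A, without CHLA-90 shERK5-4 replicate 2, 1.21, adjusted p = 0.0481), 2 to 3 for the added comparison and 3 to 4 for the lines. Of 608 values of the members and MAPK7 under the other alternatives, called or not, 17 changed sign while called neither there nor in the main fit. With 1 array left out this held for 44 of 624 values. The cause of these changes was not tested.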
